A study of Mus musculus with 8 samples.

Results

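The cells described here are the arterial endothelial cells of the adult mouse heart, 3736 of the 31028 cells in the deposited table. A cell was counted as endothelial when it held at least 1 UMI (unique molecular identifier, 1 counted transcript) of Pecam1, Kdr or Cdh5, which encode a junctional adhesion protein, a VEGF receptor and VE-cadherin. It was counted as arterial when at least 3 of 8 further genes had a UMI. These genes were Sema3g (a secreted semaphorin), Stmn2 (a microtubule-binding stathmin), Nebl (an actin-binding protein), Gja4 and Gja5 (connexins of arterial gap junctions), Hey1 (a transcriptional repressor downstream of Notch), Alpl (an alkaline phosphatase) and Fbln5 (a fibulin that helps to assemble elastic fibres). Cells with a UMI of Ptprc, Rgs5, Mki67 or Top2a, which mark leukocytes, pericytes and dividing cells, were left out. The cells were therefore chosen by measured values, and the levels of these 15 genes are given as a description with no test.

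All 8 mice carried the Pdgfb-iCreERT2 transgene and the R26R-Brainbow2.1 (Confetti) reporter, and all were given tamoxifen once, at 150 mg/kg. Cre driven by Pdgfb then switches on a fluorescent protein in endothelial cells, so that endothelium without Pdgfb activity at that time is not in the data. In the MI group of 4 mice the left anterior descending coronary artery was tied permanently 14 days after tamoxifen, and ventricles were taken 7 days after the ligation. Ventricles of the 4 healthy mice were taken at the same 21 days after tamoxifen. The paper states that healthy controls had no surgery, so that there was no sham operation. CD31+ Confetti+ podoplanin- cells were sorted from each heart, and 1 droplet library (10X Chromium, 3' ends) was made per mouse. Each mouse is called by its group and its number from the labels (Healthy 227, 228, 239 and 240; MI 244, 250, 255 and 256), and values per mouse follow this order throughout.

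Arterial endothelium lines the vessels that carry blood into the heart muscle under high pressure and shear stress. Its identity is set in development by VEGF and Notch signalling and by Sox transcription factors of the SoxF group, and it differs from the capillary endothelium, which takes up fatty acids, and from the venous endothelium, which expresses Nr2f2 and is a main site of leukocyte entry. Arterial cells are known for connexins, for elastic fibre proteins shared with the vessel wall and for genes that respond to flow.

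The labels give cardiac endothelial cells for every library, and 22610 of the 28671 cells that were kept passed the endothelial part of the rule and lacked the excluded genes. Healthy 228 shared 2041 cell barcodes with Healthy 239, and Healthy 227 shared 316 with Healthy 228, whereas the other 26 pairs of mice shared 10 to 40. These 2357 cells were left out of Healthy 228 and Healthy 227, and the counts of genes called over the whole table are also given without these 2 mice. Arterial cells numbered 240, 195, 628 and 373 in the healthy mice and 554, 583, 589 and 574 in the MI mice. Their UMIs summed to between 638300 and 1501624 per healthy mouse and between 2680156 and 3551245 per MI mouse, so that the values of healthy mice carry more counting error. Xist was at 0 CPM in Healthy 227 and MI 244 and at 799 to 945 CPM in the other mice, so each group held 1 mouse without this transcript of the inactive X chromosome. CPM are counts scaled to the same UMI total (parts per 1e6) in the summed arterial cells of 1 mouse.

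The promoters of 4 of the 8 arterial genes are shown because these genes chose the cells and their levels set the group apart. The sequences are those of RefSeq on GRCm38.p6, from 250 bases before to 50 bases after the transcription start, 5′ to 3′ on the strand of the gene. Capitals mark TGGGAA or its reverse complement TTCCCA, the core that the Notch partner RBPJ binds, and ACAAT or ATTGT, the core that SOX factors bind, both searched on both strands. Gja4 lies on the minus strand at chr4:127313990-127314289, Gja5 on the plus strand at chr3:97032152-97032451, Sema3g on the plus strand at chr14:31217623-31217922 and the promoter of Fbln5 shown, 1 of 2 listed, on the minus strand at chr12:101819070-101819369.
Gja4: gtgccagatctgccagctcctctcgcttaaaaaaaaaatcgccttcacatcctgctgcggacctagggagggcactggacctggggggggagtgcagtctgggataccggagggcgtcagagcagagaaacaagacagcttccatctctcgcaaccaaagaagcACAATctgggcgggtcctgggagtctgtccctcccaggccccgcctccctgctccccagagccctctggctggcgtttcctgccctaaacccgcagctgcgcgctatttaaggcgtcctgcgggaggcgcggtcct
Gja5: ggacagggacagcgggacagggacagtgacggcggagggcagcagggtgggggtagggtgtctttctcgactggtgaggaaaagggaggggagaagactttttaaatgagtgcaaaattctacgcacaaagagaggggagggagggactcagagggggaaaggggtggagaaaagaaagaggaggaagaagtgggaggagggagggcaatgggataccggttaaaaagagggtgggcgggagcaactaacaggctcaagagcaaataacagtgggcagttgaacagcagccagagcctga
Sema3g: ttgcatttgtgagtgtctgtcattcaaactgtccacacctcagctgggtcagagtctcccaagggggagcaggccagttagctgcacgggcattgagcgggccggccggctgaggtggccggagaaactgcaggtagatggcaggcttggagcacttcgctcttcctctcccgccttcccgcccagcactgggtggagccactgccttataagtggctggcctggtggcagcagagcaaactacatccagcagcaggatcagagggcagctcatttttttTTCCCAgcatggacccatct
Fbln5: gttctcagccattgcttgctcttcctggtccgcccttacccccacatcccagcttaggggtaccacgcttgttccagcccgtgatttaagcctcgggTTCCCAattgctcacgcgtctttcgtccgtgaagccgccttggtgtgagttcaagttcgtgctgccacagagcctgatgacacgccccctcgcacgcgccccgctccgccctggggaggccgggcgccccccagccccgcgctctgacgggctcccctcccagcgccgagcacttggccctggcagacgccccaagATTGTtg
The RBPJ core was present in the Sema3g and Fbln5 windows and the SOX core in those of Gja4 and Fbln5, and neither was present in that of Gja5. Where a gene had more than 1 promoter listed, as Fbln5 had, the one with more of the 2 cores was shown. The matches of Fbln5 are therefore no neutral example. No match says only that these letters are not in this window. Promoters were listed for 6 of the 8 genes, 11 in all, and 27.3% of them held the RBPJ core and 36.4% the SOX core, against 25.6% and 31.0% of all 32851 promoters of the table. Of 19 promoters of 18 arterial genes outside the rule, 15.8% held the RBPJ core and 31.6% the SOX core.

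The 8 arterial genes were seen in far more arterial than other endothelial cells, as the rule required. Stmn2 had a UMI in 84.6% of arterial and 22.1% of other endothelial cells, Hey1 in 71.0% and 11%, Fbln5 in 69.9% and 6.91% and Gja4 in 65.8% and 5.0%. Alpl was found in 56.7% and 7.06%, Sema3g in 47.8% and 2.97%, Nebl in 38.9% and 1.25% and Gja5 in 30.3% and 1.13%. Pecam1, Kdr and Cdh5 differed little, at 92.7%, 76.0% and 92.7% of arterial and 86.2%, 80.0% and 91.6% of other endothelial cells. The threshold cut through a continuous range. Of all endothelial cells 45.8% (10353) held none of the 8 genes, 10.2% (2312) held 2 and were just outside, 5.11% (1156) held 3 and were just inside, and 141 held all 8.

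Free RNA and doublets can also carry these transcripts. At least 3 of the 8 genes had a UMI in 10.2% of 1095 cells with Ptprc (median 7183 UMIs per cell) and in 28.9% of 2418 cells with Rgs5 (median 3993), both of which the rule excluded. Among those of them without Pecam1, Kdr or Cdh5, the shares were 1.23% of 243 and 10.3% of 97 cells. The median in arterial cells was 3255 UMIs. With every cell thinned at random to 1000 UMIs the rule found 1723 arterial cells among 22419 endothelial cells. The excluded genes were also read from the thinned counts, so cells that had lost their UMI of these genes could enter. Of the 1723 cells, 1592 also met the rule with all UMIs. Endothelial cells of MI mice numbered 13570 at 1000 UMIs and 12970 with all UMIs. The arterial shares, the levels by number of arterial genes and the Plvap shares at 1000 UMIs below are of these thinned sets. At that depth at least 3 of the 8 genes had a UMI in 0 of 211 cells with Ptprc and in 13.5% of 260 cells with Rgs5 that lacked the 3 endothelial genes. With all UMIs only 97 cells with Rgs5 lacked them. Many of the 260 had thus lost endothelial UMIs by thinning, and their share is no measure of free RNA in pericytes.

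Genes that the rule did not use differed with the number of arterial genes in a cell. In cells thinned to 1000 UMIs, the summed level of 24 arterial genes outside the rule went from 6243 ± 391 CPM (SD, n = 4 mice) in cells of healthy mice with 0 of the 8 genes to 12766 ± 2350 CPM in cells with 6 to 8. In the MI mice it went from 4533 ± 456 to 13441 ± 892 CPM. The sum of 13 capillary genes ran the other way, from 34768 ± 3042 to 13648 ± 1448 CPM in healthy and from 26692 ± 4036 to 13407 ± 1706 CPM in MI mice. The sum of 12 venous genes went from 1716 ± 147 to 444 ± 254 CPM in healthy mice and from 2503 ± 575 to 756 ± 313 CPM in MI mice, where it stood at 2619 ± 634 CPM in cells with 1 arterial gene.

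Single genes showed different shapes along this range. Car4, a carbonic anhydrase of capillary cells, was at 360 ± 29.4 CPM in healthy cells with 0 arterial genes and at 0 in cells with 6 to 8. Tmem100, a membrane protein induced by BMP signals in arterial endothelium, was at 1.87 ± 1.39 and 172.7 ± 288 CPM, and the sum of 16 elastic fibre genes at 615 ± 79.5 and 3377 ± 516 CPM. Cxcl12, a chemokine that binds Cxcr4, was highest in between, at 2484 ± 320 CPM in healthy cells with 2 arterial genes against 1282 ± 167 with none and 993 ± 381 with 6 to 8. In MI mice it was at 503 ± 173 CPM with none, 1644 ± 211 with 3 and 1297 ± 362 with 6 to 8. The last class held 107 cells in all, and values differ there by chance more than elsewhere.

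**Figure D1:**
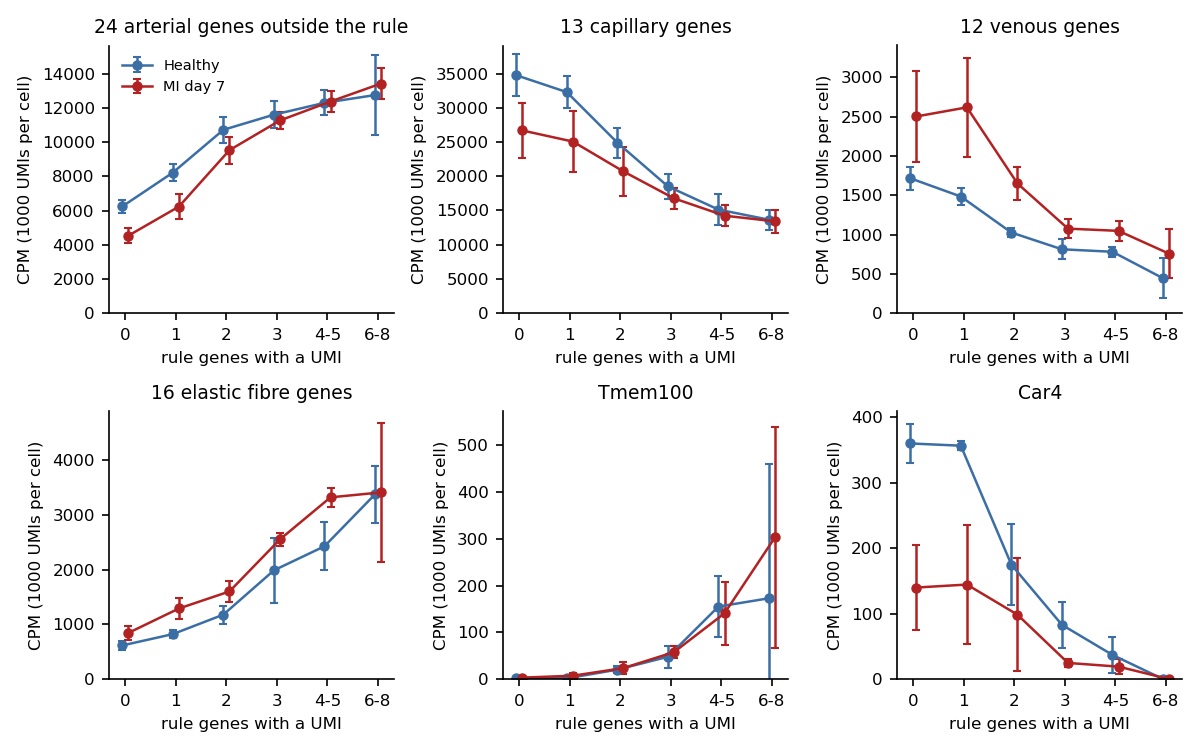
CPM in cells thinned to 1000 UMIs (vertical axes) against the number of the 8 arterial genes with a UMI (horizontal axes), for 4 gene lists and for Tmem100 and Car4. Points are means over 4 mice per group and bars are SDs; the 24 arterial genes outside the rule and the elastic fibre genes are higher to the right and the capillary and venous genes lower, in both groups.

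None of the 24 arterial genes outside the rule was used to choose the cells. Their list was drawn up with earlier results of these data known, so it describes the cells and is no independent check of the label. Of the 24, 19 were higher in arterial than in other endothelial cells in 8 of 8 mice, beside 21.5% of the 3495 genes with at least 50 CPM in either class. The lists were not limited to that level, here and below, and Hey2 for example was under it. The differences are means over mice of paired log2(CPM + 10) values, with the SD over the 8 mice. Vegfc, a VEGF family ligand, was higher by 2.17 ± 0.38, with a mean of 277 CPM in arterial and 52.4 CPM in other cells. Jag1, a Notch ligand, was higher by 1.83 ± 0.15, Sox17 of the SoxF group by 1.83 ± 0.13, and Bmx, a kinase of arterial endothelium, by 1.82 ± 0.26. Mecom, a transcription factor, followed at 1.67 ± 0.13 and Efnb2, the ephrin that defines arterial cells towards veins, at 1.47 ± 0.24.

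The Notch pathway was not uniform. The ligand Dll4 was higher by 0.84 ± 0.25, the receptors Notch1 and Notch4 by 0.57 ± 0.17 and 0.45 ± 0.25, and the target Nrarp by 0.69 ± 0.17, in all 8 mice. Hes1, another Notch target, was higher in only 2 of 8 mice, with a mean difference of -0.19 ± 0.24. Hey2 was near the limit of detection, at no more than 2.98 CPM in any mouse. Of the SoxF factors, Sox18 was higher in arterial cells by 0.66 ± 0.17 and Sox7 lower by -0.43 ± 0.22. Sox7 and the VEGF coreceptor Nrp1, at -0.17 ± 0.09, were the 2 of the 24 genes that were lower in all 8 mice.

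**Figure D2:**
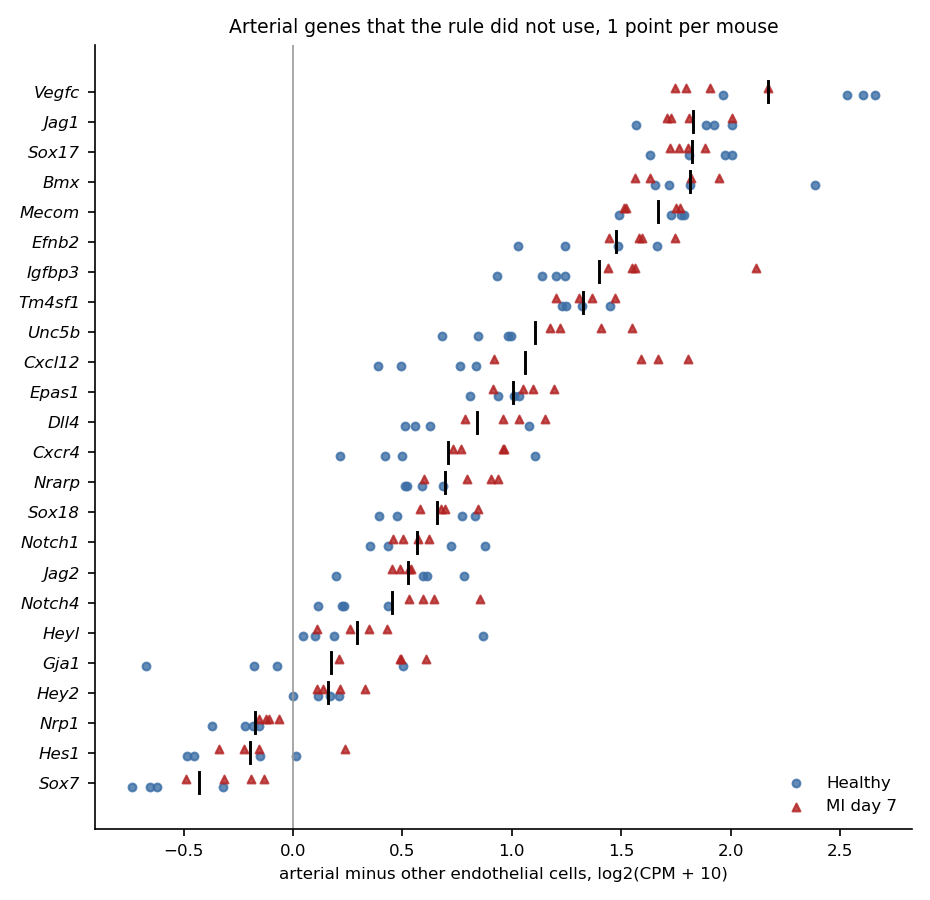
Difference in log2(CPM + 10) between arterial and other endothelial cells (horizontal axis) for the 24 arterial genes outside the rule, with 1 point per mouse and a black bar at the mean over 8 mice. For 19 genes all points lie to the right of 0; Sox7 and Nrp1 lie to the left in every mouse.

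Over all genes with at least 50 CPM in either class, 80 (2.29% of 3495) were at least 1 log2 unit higher in arterial cells and higher in 8 of 8 mice, and 52 (1.49%) were lower to that extent. With the genes of the rule set aside, Eps8l2, an actin regulator, led with a difference of 2.91 ± 0.41 and means of 113 CPM in arterial and 5.41 CPM in other cells. Pcsk5, a proprotein convertase, was next at 2.74 ± 0.14. Clu, which encodes the extracellular chaperone clusterin, was at 430 against 94.8 CPM, and Glul, glutamine synthetase, at 531 against 88.1 CPM.

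The 20 leading genes included several of matrix and growth factor proteins. They were Fn1 (fibronectin, 277 against 43.8 CPM), Col8a1 (122 against 14.5 CPM), Col18a1 (262 against 61.4 CPM), Tgfb2 (65.6 against 5.07 CPM), Igf2 (103 against 13.5 CPM) and Igfbp4 (313 against 74.0 CPM). Edn1, the precursor of the vasoconstrictor endothelin-1, had a difference of 1.90 ± 0.36, and Alox12, a lipoxygenase, of 2.46 ± 0.29. Amd1 and Azin1, both of polyamine metabolism, stood at 2.26 ± 0.29 and 2.18 ± 0.15. The remaining leading genes were Cox4i2, Vegfc, Tmem100, Cdk19, Rgs10 and Kazald1, with differences from 1.96 to 2.23.

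Genes low in arterial cells included those of capillaries and veins. Aqp1, a water channel, was at 327 CPM in arterial and 1793 CPM in other cells, a difference of -2.45 ± 0.88. Aplnr, the apelin receptor, was at 145 against 637 CPM (-2.32 ± 0.75), and Adm, adrenomedullin, at 19.3 against 107 CPM (-2.10 ± 0.61). Of the 13 capillary genes, 10 were lower in all 8 mice, with Fabp4 at 11162 against 17532 CPM, and of the 12 venous genes 7 were, beside 14.5% of the 3495 genes. Haemoglobin genes were also lower, with Hba-a1 at -2.89 ± 2.11, and their level varied strongly between mice. They are red cell transcripts, and their summed level in arterial cells ran from 107 to 1205 CPM in healthy and from 146 to 3255 CPM in MI mice.

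The first question on infarction was whether arterial cells took a different share of the endothelium. They made up 11.5%, 14.5%, 19.4% and 12.6% of endothelial cells in the healthy mice and 17.5%, 15%, 19.2% and 20.2% in the MI mice. The groups overlapped, and the difference between the means of 14.5% ± 3.52 (SD, n = 4) and 18.0% ± 2.29 did not pass a two-sided exact permutation test over the 70 splits of the mice (p = 0.143, adjusted p = 0.190 over 4 such tests, smallest possible p 0.0286). Arterial cells of MI mice held more UMIs, with medians of 4210, 3888, 4863 and 3640 per cell against 2514, 3065, 2175.5 and 2439 in healthy mice, and every MI mouse was above every healthy mouse (exact p = 0.0286, the smallest possible, adjusted p = 0.0571). The difference of 1602 UMIs was 820.4 without cells with RNA of other types. Since a deeper cell shows 3 genes more easily, the share was also taken with every cell thinned to 1000 UMIs. It was then 4.97%, 5.66%, 12.5% and 6.67% in healthy and 6.77%, 6.52%, 7.88% and 9.09% in MI mice, with means of 7.44% ± 3.42 and 7.57% ± 1.18 (exact p = 0.971). Healthy 239 stood above all other mice there, and without it the healthy mean was 5.77%, a difference of 1.80 percentage points (exact p = 0.143). Thinning left out 522 endothelial cells with fewer UMIs in healthy mice, 33 of them arterial, and none in MI mice. It also let in cells that had lost their UMI of an excluded gene, as given above.

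At that equal depth, arterial cells of MI mice showed slightly more genes per cell, with medians of 696, 694, 688 and 681 against 678, 664, 674 and 674. The groups did not overlap, and the difference was 17.2 genes (exact p = 0.0286, adjusted p = 0.0571). Without Healthy 227 and Healthy 228 the difference in share was 1.97 percentage points with all UMIs (exact p = 0.533, smallest possible 0.0667) and -2.0 at 1000 UMIs (exact p = 0.467). The labels do not say which library the shared barcodes belong to, and with those shared by Healthy 228 and Healthy 239 dropped from Healthy 239 instead, the differences were 4.75 (exact p = 0.0571) and -0.36 (exact p = 0.800).

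**Figure D3:**
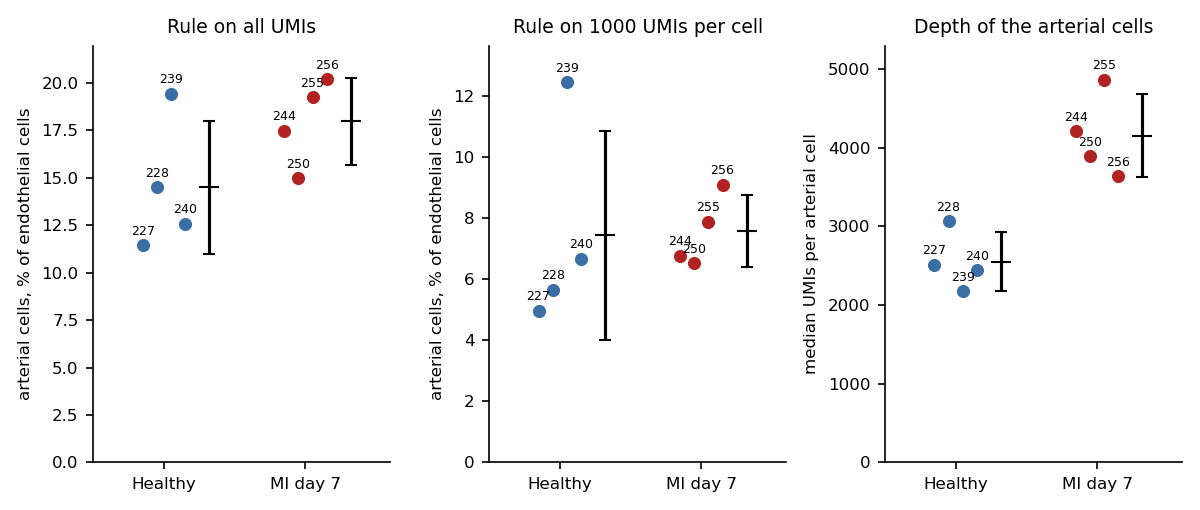
Share of endothelial cells that were arterial with all UMIs (left) and at 1000 UMIs per cell (middle), in percent, and median UMIs per arterial cell (right), with 1 point per mouse and the mean ± SD of each group of 4. The groups overlap in both panels of shares and do not overlap in the panel of UMIs.

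The second question was how the transcriptome of arterial cells differed after infarction. Sums of UMIs per mouse were compared with edgeR's quasi-likelihood test, and all adjusted p-values from here on are its Benjamini-Hochberg values over all genes tested. Of 9731 genes, 962 (9.89%) were higher and 1015 (10.4%) lower in MI mice at an adjusted p under 0.05, 20.3% in all. The median log2 fold change over all genes was -0.02. Among the 1592 arterial cells that also met the rule at 1000 UMIs, 298 of 7727 genes tested were higher (3.86%) and 374 lower (4.84%), of which 261 and 350 were among those above. Without Healthy 227 and Healthy 228 the counts were 700 (6.58%) and 662 (6.22%). Leaving out MI 255 gave 640 and 665.

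Among called genes that averaged at least 50 CPM and whose groups did not overlap, the largest rise was that of Lrg1, which encodes a secreted glycoprotein that modulates TGF-β signalling in endothelium. It stood at 4.59, 0, 1.33 and 1.02 CPM in the healthy mice and at 170, 166, 359 and 237 CPM in the MI mice. This is 6 UMIs in 1436 healthy cells and 2876 UMIs in 2300 MI cells, a log2 fold change of 7.09 (SE 0.46, adjusted p = 2.2e-06). Plvap, the protein of the diaphragms of fenestrae and caveolae, normally a gene of veins and fenestrated capillaries, stood at 7.65, 4.70, 4.0 and 2.04 CPM against 339, 273, 508 and 238 CPM (6.24, SE 0.35, adjusted p = 6.1e-07). Plvap had a UMI in 1.11% of healthy arterial cells and in 19.0% to 47.0% of those of each MI mouse. At 1000 UMIs per cell the share was 0.823% ± 1.30 in healthy and 7.78% ± 4.26 (SD, n = 4) in MI arterial cells, beside 17.3% ± 9.14 in other endothelial cells of MI mice and 7.11% of 211 cells with Ptprc and no endothelial gene. The last class pools healthy and MI mice, and the part of free RNA in these shares and in the rise of the sums was not tested.

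The other genes with the largest rises encode matrix, cytoskeletal, lysosomal and other proteins. Col15a1, a basement membrane collagen, went from 3.06 to 14.7 CPM in healthy mice to 98.8 to 131 CPM in MI mice (3.52, SE 0.26). Lgals1, a galectin, went from 15.3 to 50.6 CPM to 175 to 477 CPM (3.41, SE 0.35). Mest, an imprinted gene, rose by 3.25 (SE 0.28), Prss23, a serine protease, by 2.98 (SE 0.33), Marcksl1, an actin regulator, by 2.64 (SE 0.26), Bgn, the proteoglycan biglycan, by 2.60 (SE 0.34), and the lysosomal genes Lgmn and Cd63 by 2.48 (SE 0.25) and 2.29 (SE 0.26). Adjusted p-values of these 8 genes ran from 8.01e-06 to 0.000361. The naming rule took only genes without overlap between the groups. Lyz2, a macrophage lysozyme, was also among the 12 with the largest rises, at 7.65, 14.1, 208 and 23.4 CPM against 413, 243, 752 and 267 CPM (2.45, SE 0.66, adjusted p = 0.0199).

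Markers of other cells rose in the same sums. Of 10 macrophage genes 5 were called higher (Lyz2, Apoe, Fcer1g, Tyrobp and Ctss), and the summed level of the 10 was 410 to 1211 CPM in healthy and 1684 to 3722 CPM in MI mice. In this fit 9.89% of all genes were higher, which holds for each list below where no other fit is named. A UMI of Lyz2 was present in 6.06% of healthy and 50.1% of MI arterial cells, and one of C1qa in 2.16% and 20.6%, although Ptprc was at 0 in every cell by the rule. The 8 fibroblast genes summed to 9.40 to 29.1 CPM in healthy and 37.4 to 180 CPM in MI mice. Only Dcn and Gsn of them passed the filter on low counts and were tested, and both were called higher. Without Healthy 227 and Healthy 228, none of 7 fibroblast genes tested was higher and 1 was lower (median 3.48), beside 6.58% and 6.22% of all genes. Of 3 tested, 1 was higher without Healthy 239 (8.31% of all genes) and 1 without Healthy 240 (7.57%). Without Healthy 228 alone 2 of 4 were higher and 1 lower, beside 7.93% and 7.61%. The 10 mural genes summed to 14.3 to 25.1 and 53.5 to 112 CPM. Only Abcc9, Acta2 and Tagln of them were tested, and these 3 were called higher. A gene can pass the filter through the MI group alone. Genes near 0 in healthy mice are then tested mainly where they rise, so these 2 counts add little to the sums. None of the 3 cardiomyocyte, 4 erythroid, 2 lymphatic and 2 endocardial genes tested was called. The counts of such lists turned on single mice. Without Healthy 239, 9 of the 10 macrophage genes (median 4.45) and 3 of the 4 erythroid genes (median 3.04) were higher, beside 8.31% of all genes. Without MI 256 all 4 erythroid genes were higher (median 2.3), beside 11.1% of all genes. The part of such RNA in the results was not tested, but the fit was repeated without every cell that held a UMI of any of 10 such genes. This left 1134 of 1436 healthy and 727 of 2300 MI arterial cells, in which 236 of 7064 genes tested were higher (3.34%) and 312 lower (4.42%), 227 and 306 of them shared with all cells. Lrg1 (5.88), Plvap (5.18), Col15a1 (3.14) and Lgals1 (2.83) were still called there. So were the 5 of 10 macrophage genes that could be tested (median 2.46, beside 1.61 for 10 in all cells). Those cells were chosen for having no UMI of Lyz2 or C1qa, and the same filter by group applied. Of 8 macrophage genes tested in cells that met the rule at 1000 UMIs, 7 were higher (median 3.44), beside 3.86% of all genes.

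The genes with the largest falls were of less certain identity. Ly6c2 stood at 239, 199, 87.2 and 85.6 CPM in healthy and at 33.6, 25.3, 16.3 and 45.5 CPM in MI mice, a log2 fold change of -2.35 (SE 0.36, adjusted p = 0.000915). It is nearly identical to Ly6c1, and reads may have been split between the copies. Tbx3, a T-box transcription factor, was at 175, 81.5, 93.9 and 97.8 CPM against 36.0, 47.4, 25.6 and 42.5 CPM (-1.60, SE 0.23, adjusted p = 0.000635). The remaining 10 of the 12 were Wdr89, Rps27rt and genes named as pseudogenes or gene models (Gm42726, Gm10126, Gm10263, Gm10269, Gm11273, Gm17541, Rpl36-ps3 and Rpl13a-ps1), with log2 fold changes from -2.54 to -1.52. Several copy ribosomal protein genes, so that their counts depend on how reads shared with the parent gene were assigned.

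**Figure D4:**
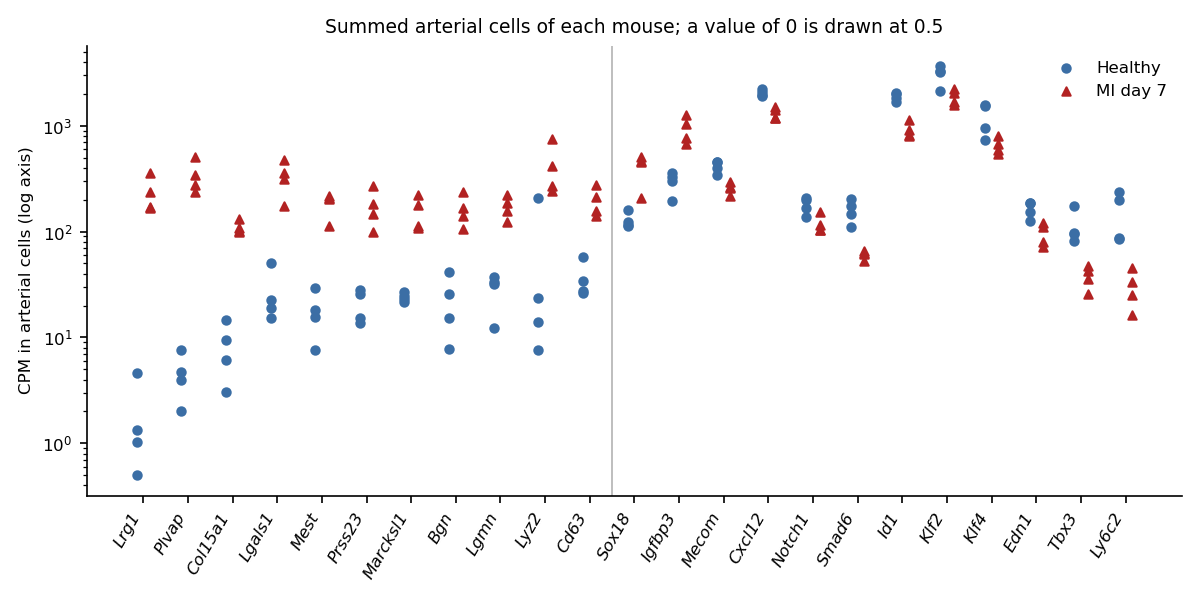
CPM in the arterial cells of each mouse on a log axis (0 drawn at 0.5), for 11 of the 12 genes with the largest rises in MI mice (left) and for 12 genes of arterial identity, BMP signalling, flow response and other groups (right). Lrg1 and Plvap lie below 10 CPM in all healthy and above 100 CPM in all MI mice; Smad6, Id1 and Cxcl12 are lower in every MI mouse than in any healthy mouse, and Sox18 and Igfbp3 higher.

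Genes of arterial identity outside the rule were mostly not called. Of the 24, 22 were tested, 2 were higher, 6 lower and 14 not called, and their median log2 fold change was -0.22. The count of 2 higher of 22 is near the 9.89% of all genes that were higher, and that of 6 lower stands beside 10.4%. These 2 shares belong to the fit over all arterial cells of the 8 mice, and each other fit has its own. The shares higher and lower were 3.86% and 4.84% in cells that met the rule at 1000 UMIs. They were 3.34% and 4.42% without cells with RNA of other types, and 6.58% and 6.22% without Healthy 227 and Healthy 228. When each mouse was left out, 6.89% to 11.1% of genes were higher and 7.16% to 11.5% lower. Sox18 was at 159, 122, 116 and 112 CPM in healthy and 464, 451, 207 and 503 CPM in MI mice (1.63, SE 0.24, adjusted p = 0.000684). Igfbp3, a binding protein of insulin-like growth factors, was at 196, 301, 326 and 360 CPM against 1273, 766, 1028 and 666 CPM (1.59, SE 0.21, adjusted p = 0.000393). In neither gene did the groups overlap (all MI mice were above all healthy mice for 14.8% of the 9731 genes and below them for 9.35%), and both kept their call in all 24 alternative settings.

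The 6 lower genes changed by smaller amounts. Mecom was at 453, 451, 342 and 401 CPM in healthy and at 260, 263, 215 and 295 CPM in MI mice (-0.73, SE 0.13, adjusted p = 0.00206). Cxcl12 was at 2097, 1954, 1891 and 2222 CPM against 1510, 1186, 1173 and 1409 CPM (-0.69, SE 0.11, adjusted p = 0.00115). Both were lower in every MI mouse. Notch1 had a log2 fold change of -0.64 (SE 0.15, adjusted p = 0.0109), Tm4sf1, a tetraspanin-like surface protein, of -0.62 (SE 0.11), Epas1, which encodes the hypoxia factor HIF-2α, of -0.52 (SE 0.15) and Nrp1 of -0.39 (SE 0.12). In the cells that also met the rule at 1000 UMIs, Notch1 (-0.74, adjusted p = 0.0170) and Tm4sf1 (-0.37) were called, and Mecom (-0.48, adjusted p = 0.0765), Cxcl12 (-0.34, adjusted p = 0.0705), Epas1 (-0.23) and Nrp1 (-0.22) were not. The Notch ligands Dll4 (-0.24, SE 0.11, adjusted p = 0.136) and Jag1 (-0.15, SE 0.16, adjusted p = 0.571), Notch4 (0.10, SE 0.12) and Sox17 (-0.34, SE 0.15, adjusted p = 0.144) were not called.

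The 8 arterial genes of the rule moved in both directions. Gja5 was at 104, 59.5, 143 and 89.7 CPM in healthy and 250, 207, 299 and 200 CPM in MI mice, and Gja4 at 314, 450, 505 and 385 against 689, 491, 598 and 516 CPM. Alpl was at 349, 418, 555 and 492 CPM against 130, 213, 114 and 218 CPM, and Nebl at 328, 211, 392 and 273 CPM against 103, 161, 106 and 132 CPM. Hey1 and Sema3g were also lower in every MI mouse, at 403 to 675 against 271 to 380 CPM and at 249 to 358 against 153 to 202 CPM, whereas Fbln5 (445 to 749 and 632 to 799 CPM) and Stmn2 (808 to 1095 and 726 to 831 CPM) overlapped. Because the rule counts these genes, the values describe the chosen cells and were not tested.

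Most basement membrane genes were higher after infarction. Of 15 tested, 13 were higher and 1 lower, with a median log2 fold change of 0.74 beside -0.02 over all genes. Sparc, a collagen-binding matrix protein, was at 1753, 1294, 1684 and 1751 CPM in healthy and 5314, 4745, 4936 and 3527 CPM in MI mice (1.46, SE 0.13, adjusted p = 2.6e-05). Col18a1, the source of endostatin, was at 133, 97.1, 95.9 and 149.8 CPM against 377, 382, 499 and 359 CPM (1.71, SE 0.16, adjusted p = 2.6e-05). The groups were far apart in both genes. Col4a1 and Col4a2, the network collagens, rose by 0.91 (SE 0.14) and 0.74 (SE 0.11) and Lamb1, a laminin chain, by 1.36 (SE 0.16), while Lamb2 fell by 0.56 (SE 0.13, adjusted p = 0.0104). Among cells that met the rule at 1000 UMIs, 8 of the 15 were higher and none lower, beside 3.86% and 4.84% of all genes in that fit. Of the 16 elastic fibre genes 6 were higher and 3 lower in arterial than in other cells of all 8 mice. Of the 3495 genes with at least 50 CPM in either class, 21.5% were higher and 14.5% lower in this way. After infarction, Emilin1 (1.48, SE 0.19, adjusted p = 0.000393) and Mfap5 were higher and Ltbp4 lower of 12 tested, beside 9.89% and 10.4% of all genes, while Eln (0.82, SE 0.28, adjusted p = 0.0551), Mgp and Fbln2 were not called. Without Healthy 239, 5 of 13 elastic fibre genes were higher and none lower, as were 5 of 12 without MI 244. In these 2 fits 8.31% and 7.42% of all genes were higher and 9.07% and 7.32% lower. Of 8 elastic fibre genes tested in cells that met the rule at 1000 UMIs, 4 were higher and none lower (median 0.64), beside 3.86% and 4.84% of all genes.

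Several targets, inhibitors and receptors of BMP and TGF-β signalling and 1 ligand were lower. Of 18 tested, 8 were lower and 4 higher (median -0.38), beside 10.4% and 9.89% of all genes. Smad6, an inhibitor that BMP signals and flow induce, was at 175, 111, 147 and 203 CPM in healthy and at 60.8, 65.2, 52.9 and 63.1 CPM in MI mice (-1.46, SE 0.15, adjusted p = 7.2e-05). Id1, a direct BMP target, was at 1678, 1819, 2012 and 2057 CPM against 814, 1138, 794 and 920 CPM (-1.11, SE 0.13, adjusted p = 0.000136). Neither gene showed overlap between groups.

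Other members of this list moved the same way. Smad7, also an inhibitor, fell by 0.91 (SE 0.12), Id2 and Id3 fell by 0.79 (SE 0.15) and 0.65 (SE 0.11), the BMP receptor Acvrl1 and its coreceptor Eng fell by 0.57 (SE 0.11) and 0.39 (SE 0.10), and the ligand Tgfb2 fell by 1.21 (SE 0.25, adjusted p = 0.00489). The 4 higher genes were the receptor Tgfbr2 (0.57, SE 0.11), Smad1 (0.48, SE 0.13), Bmp2 and Lrg1. In cells that met the rule at 1000 UMIs, 5 were lower, among them Smad6 (-0.92, adjusted p = 0.00369) and Id1 (-0.81), and 3 higher, beside 4.84% and 3.86% of all genes in that fit. Without cells with RNA of other types, 5 of 17 were lower and 1 higher (median -0.16), beside 4.42% and 3.34%.

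Of 16 tested genes of flow and vascular tone, 4 were lower and 3 higher (median -0.003), beside 10.4% and 9.89% of all genes. The transcription factors Klf2 and Klf4 were among the lower ones. Klf2 was at 2126, 3187, 3671 and 3266 CPM in healthy and at 2017, 2211, 1690 and 1564 CPM in MI mice, with MI 250 above Healthy 227 (-0.77, SE 0.16, adjusted p = 0.00512). Klf4 fell by 0.94 (SE 0.21, adjusted p = 0.00818), Edn1 by 0.81 (SE 0.19, adjusted p = 0.00904) and Thbd, thrombomodulin, by 0.60 (SE 0.12). Adm, Ptgs1 and Calcrl were higher, and 9 of the 16 tested genes of flow and vascular tone were not called, among them Nos3, the endothelial nitric oxide synthase (-0.04, SE 0.11, adjusted p = 0.856). The 4 lower genes were also called in cells that met the rule at 1000 UMIs, where 4.84% of all genes were lower. The 3 higher genes were not called there or without cells with RNA of other types. In the latter fit, with fewer cells, 4.42% of all genes were lower and 3.34% higher. There Klf4 was called (-0.68), and Klf2 (-0.55, adjusted p = 0.0553), Edn1 (-0.57, adjusted p = 0.0710) and Thbd (-0.35, adjusted p = 0.109) were not.

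Some immediate early and heat shock genes, which also respond to tissue dissociation, were lower as well. Of 13 immediate early genes, Jun, Jund, Egr1, Zfp36 and Btg2 were lower, 8 were not called and none was higher (median -0.37). Of all genes 10.4% were lower in that fit. Without cells with RNA of other types 1 of the 13 was lower (median -0.19), beside 4.42% of all genes. Leaving out each mouse gave 3 to 9 lower, with 9 without Healthy 227 and 3 without Healthy 228, Healthy 240, MI 244 or MI 255. In these fits 7.16% to 11.5% of all genes were lower. Jund was at 1191, 1593, 1582 and 2132 CPM in healthy and 803, 970, 876 and 853 CPM in MI mice (-0.95, SE 0.15, adjusted p = 0.00104). Of 11 heat shock genes 6 were lower and 1 higher (median -0.46), beside 10.4% and 9.89% of all genes. Hspb1 was at 1202 to 1797 CPM in healthy and 465 to 797 CPM in MI mice (-1.21, SE 0.18, adjusted p = 0.000917). Klf2, Klf4 and Edn1 moved in the same direction as these genes, and the part of handling in their change was not tested.

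Several venous genes were higher after infarction. Of 12 tested, 8 were higher and none lower, beside 9.89% and 10.4% of all genes, with a median log2 fold change of 1.91. Vwf, the adhesive glycoprotein of blood clotting, was at 49.0, 25.1, 46.0 and 33.6 CPM in healthy and 122, 129, 184 and 173 CPM in MI mice (1.91, SE 0.20, adjusted p = 6.9e-05). Aplnr was at 35.2, 79.9, 47.3 and 73.4 CPM against 193, 287, 232 and 209 CPM (1.92, SE 0.21, adjusted p = 9.2e-05). In cells that met the rule at 1000 UMIs, 5 of 7 tested were higher, beside 3.86% of all genes in that fit. Of 13 capillary genes Rgcc, Cd300lg, Aqp7 and Tcf15 were lower, Fabp5 and Aqp1 higher and 7 not called (median -0.49), beside 10.4% of all genes lower and 9.89% higher. When each mouse was left out 3 to 7 were lower (7 without MI 250) and 1 or 2 higher (1 without Healthy 227, Healthy 228, Healthy 240 or MI 250). Of all genes 7.16% to 11.5% were lower and 6.89% to 11.1% higher in these fits. In cells that met the rule at 1000 UMIs 5 were lower and 1 higher, beside 4.84% and 3.86% of all genes in that fit. Without cells with RNA of other types 3 were lower and none higher, beside 4.42% and 3.34%. Aqp7, a glycerol channel, fell by 0.92 (SE 0.17, adjusted p = 0.00283), and Tcf15, a factor of fatty acid uptake, by 0.90 (SE 0.20, adjusted p = 0.00734).

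Of 16 genes of VEGF signalling and sprouting, 5 were higher, among them Pgf, placental growth factor, at 6.12, 3.13, 28.6 and 26.5 against 101, 84.9, 129 and 56.7 CPM (2.23, SE 0.37, adjusted p = 0.00151), and 3 were lower, led by the receptor Flt1 (-0.67, SE 0.12, adjusted p = 0.00221). Interferon genes were higher in 5 of 15, with Ifi27l2a at 1.79 (SE 0.34, adjusted p = 0.00319) and Irf7 at 1.16 (SE 0.21, adjusted p = 0.00224), and of 13 genes of antigen presentation the class II genes H2-Ab1, H2-Aa and Cd74 were called. The counts of these lists stand beside 9.89% of all genes higher and 10.4% lower. Macrophages express class II genes too, and their markers rose beside them as given above.

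Glycolysis genes were higher in 7 of 14, with Pkm, pyruvate kinase, at 1.0 (SE 0.15, adjusted p = 0.000895) and Gapdh at 0.61 (SE 0.09, adjusted p = 0.00083), and oxidative phosphorylation genes in 3 of 27, with 1 lower, near the 9.89% of all genes that were higher. Of 12 tested genes linked to endothelial-to-mesenchymal transition 6 were higher, among them Vim, vimentin, at 916 to 1309 CPM in healthy and 3050 to 4056 CPM in MI mice (1.5, SE 0.13, adjusted p = 2.1e-05). The list also held Fn1 (0.51, SE 0.12), and Acta2 (2.26, SE 0.50) and Tagln (4.74, SE 0.94), which mural cells express. Col1a1, Col1a2, Col3a1, Twist1 and Cdh2 were too low in arterial cells to be tested. Of 17 genes of cell cycle entry, 7 were higher, and the inhibitors Cdkn1b and Cdkn1c lower, the second at 914, 685, 533 and 540 against 235, 420, 201 and 339 CPM (-1.21, SE 0.23, adjusted p = 0.00287). Cells with Mki67 or Top2a had been left out by the rule.

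Of 15 annexin, S100 and galectin genes 8 were higher and 1 lower, and of 7 coagulation genes 5 were higher and 1 lower. Of 9 leukocyte adhesion genes 5 were higher and none lower, and of 10 junction genes 1 was lower, Jam2, near the 10.4% of all genes. In cells that met the rule at 1000 UMIs, where 3.86% of all genes were higher, the numbers higher were 2 of 14 for glycolysis, 0 of 27 for oxidative phosphorylation, 1 of 15 for cell cycle entry, 4 of 10 for the mesenchymal list, 2 of 6 for leukocyte adhesion, 5 of 15 for annexins, S100 and galectins, 2 of 6 for coagulation, 2 of 13 for VEGF signalling and sprouting (1 lower) and 3 of 14 for interferon genes. Without cells with RNA of other types, where 3.34% of all genes were higher, 1 of 8 tested mesenchymal genes and 1 of 6 leukocyte adhesion genes (median 0.23, beside 1.37 in all cells) were higher, as were 3 of 14 annexin, S100 and galectin, 2 of 6 coagulation, 4 of 8 venous, 8 of 15 basement membrane, 1 of 12 glycolysis and 1 of 13 VEGF and sprouting genes. Without Healthy 227 and Healthy 228, 3 of 15 mesenchymal genes were higher and 1 lower, and the numbers higher were 1 of 10 for leukocyte adhesion, 5 of 12 for venous, 10 of 15 for basement membrane and 3 of 10 for macrophage genes. In that fit, where 6.58% of all genes were higher and 6.22% lower, 8 of 13 immediate early genes and 8 of 19 genes of BMP and TGF-β signalling were lower. When each mouse was left out in turn, the numbers higher were 4 to 8 for glycolysis (4 without MI 244), 0 to 3 for oxidative phosphorylation (0 without any 1 of 5 mice), 4 to 9 for cell cycle entry (4 without Healthy 240 or MI 244), 3 to 7 for interferon genes (3 without Healthy 239, MI 250 or MI 255), and 2 to 5 for leukocyte adhesion and 5 to 8 for venous genes, both lowest without Healthy 227, Healthy 228 or Healthy 240. The share of all genes higher in these fits ran from 6.89% to 11.1%.

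The last question was whether the MI effect in arterial cells differed from that in other endothelial cells of the same mice. The difference was tested as an interaction in edgeR with the mouse as a block, over 11259 genes. It was above 0 for 192 genes (1.71%) and below 0 for 109 (0.968%), 2.67% in all. In cells that met the rule at 1000 UMIs the counts were 157 (1.49%) and 67 (0.636%), of which 66 and 46 were shared, and without Healthy 227 and Healthy 228 they were 126 (1.07%) and 65 (0.55%). S100a9 and S100a8, granulocyte genes, had the largest differences (5.35 and 4.65, adjusted p = 0.00175 and 0.0055), but 1 cell of MI 244 held 2235 of the 2290 UMIs of S100a8 and 1463 of the 1509 UMIs of S100a9 in that mouse.

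Some genes that were low in healthy arterial cells rose there more than in other cells. Trp53i11 was at 18.4, 23.5, 46.6 and 43.8 CPM in healthy arterial cells and 208, 153, 151 and 145 CPM in those of MI mice (2.15, SE 0.22), beside means of 281 and 394 CPM in other cells (0.41, SE 0.15), and the difference was 1.78 (SE 0.14, adjusted p = 4.5e-08). Lgals1 had log2 fold changes of 3.41 and 1.79 (difference 1.63, SE 0.24, adjusted p = 0.000245), Col15a1 of 3.52 and 1.96 (1.63, SE 0.31, adjusted p = 0.00363) and Mest of 3.25 and 1.75 (1.59, SE 0.16, adjusted p = 2.6e-06). In the cells that met the rule at 1000 UMIs, Trp53i11 (1.17, adjusted p = 0.00261) and Lgals1 (2.18) were called, and Col15a1 (adjusted p = 0.129) and Mest (0.67, adjusted p = 0.357) were not.

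Clu, Col18a1, Igfbp4, Ace and Hs3st1 rose more in the rest of the endothelium. Clu was at 246, 193, 434 and 290 CPM in healthy arterial cells and 578, 554, 663 and 483 CPM in those of MI mice (0.89, SE 0.19), but went from a mean of 21.4 to 168 CPM in other cells (2.88, SE 0.48), a difference of -1.86 (SE 0.28, adjusted p = 0.000319). Col18a1 rose by 1.71 in arterial and 2.98 in other cells (difference -1.23, SE 0.18, adjusted p = 0.000188), and Igfbp4 by 0.85 and 2.06 (-1.19, SE 0.12, adjusted p = 2.6e-06). Ace, angiotensin-converting enzyme, was not called in arterial cells (0.32, SE 0.15, adjusted p = 0.148) and rose in others by 1.68 (difference -1.34, SE 0.17, adjusted p = 4.5e-05). Hs3st1, a heparan sulfate sulfotransferase, showed the same (0.11 and 1.51, difference -1.37, SE 0.18, adjusted p = 0.0001). Igf2 had a difference below 0 without a call in other cells (0.34, SE 0.35, adjusted p = 0.48; means of 11.5 and 15.4 CPM). It was at 194, 172, 136 and 46.9 CPM in healthy arterial cells and 55.1, 58.8, 94.1 and 70.5 CPM in those of MI mice, with Healthy 240 below every MI mouse (-1.0, SE 0.31, adjusted p = 0.0376), and the difference was -1.27 (SE 0.23, adjusted p = 0.0022). The fall in arterial cells was called in 12 of 24 alternative settings and the difference in 20.

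Cxcl12 and Aqp1 are 2 genes of endothelial identity with a difference above 0. Cxcl12 was lower by -0.69 in arterial cells and by -1.54 in other cells (SE 0.23), where its mean went from 1331 to 481 CPM (difference 0.93, SE 0.13, adjusted p = 0.000199). Aqp1 was at 141, 232, 334 and 239 CPM against 320, 592, 367 and 388 CPM in arterial cells (0.74, SE 0.23, adjusted p = 0.0382) and went from 2224 to 1362 CPM in others (-0.78, SE 0.20), a difference of 1.56 (SE 0.13, adjusted p = 1.1e-07). Healthy 239 and MI 244 overlapped for Aqp1 in arterial cells. The differences of Clu, Ace, Col18a1, Igfbp4, Cxcl12 and Aqp1 were called in all 24 alternative settings. By list, a difference above 0 was called for 8 of 15 basement membrane genes (1 below), 6 of 13 capillary genes, 7 of 16 genes of VEGF signalling and sprouting and 5 of 23 arterial genes outside the rule (1 below), and one below 0 for 8 of 13 immediate early genes, beside 1.71% of all genes above and 0.968% below 0. In cells that met the rule at 1000 UMIs the first 4 counts were 2, 8, 4 and 11 above 0 (1.49% of all genes), and without cells with RNA of other types 3, 7, 3 and 4 (0.707%). Of the immediate early genes, 5 had a difference called below 0 in either fit (0.636% and 0.525% of all genes). Without Healthy 239 the numbers above 0 were 3 for capillary, 4 for VEGF and sprouting and 3 for arterial genes outside the rule (1.04% of all genes). In that fit 5 immediate early genes were below 0 (0.542% of all genes). When each mouse was left out, the numbers were 3 to 10, 4 to 8, 3 to 8 and 4 to 8, with 10 capillary and 8 arterial genes without MI 256, 3 of each without Healthy 240, 3 capillary genes without MI 250, 4 immediate early genes without Healthy 228 and 5 without Healthy 227 or MI 250, and 7 to 9 for basement membrane genes. Over these leave-out fits 1.04% to 2.26% of all genes were above 0 and 0.542% to 1.17% below. Without Healthy 227 and Healthy 228, 3 immediate early genes were below 0, beside 0.55% of all genes. For macrophage genes, none of 10 had a difference called, but 5 were above 0 in cells that met the rule at 1000 UMIs and 6 without Healthy 239, and of 4 erythroid genes all 4 were above 0 without Healthy 239 or without MI 256 and none with all mice.

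**Figure D5:**
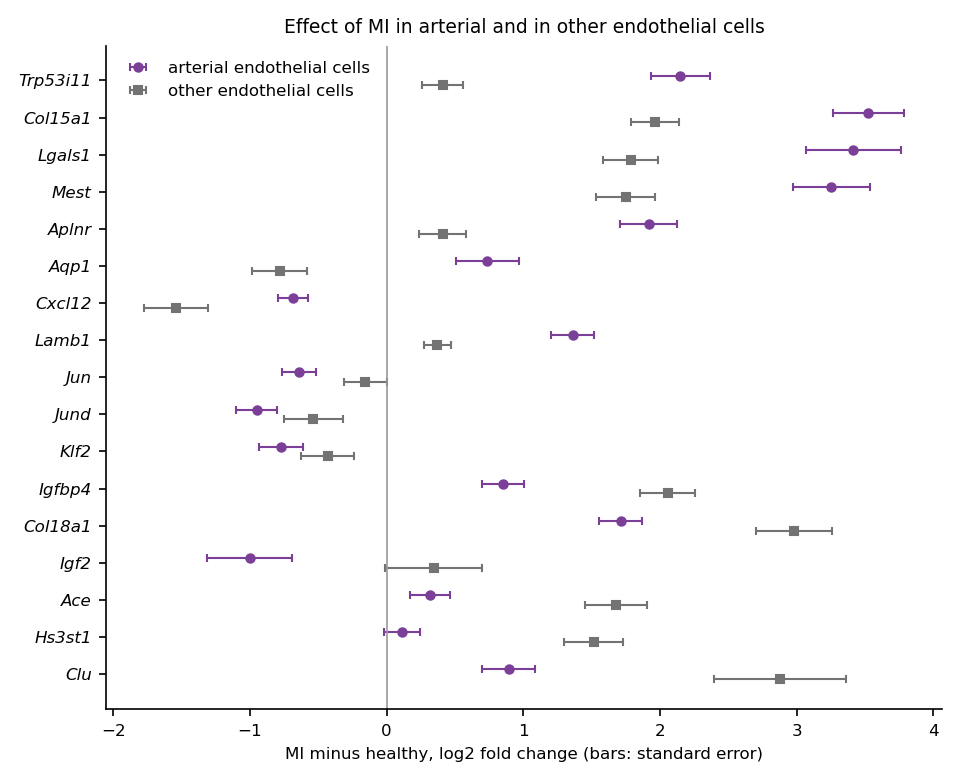
Log2 fold change of MI against healthy mice with its standard error (horizontal axis) in arterial and in other endothelial cells for 17 genes, 4 mice per group. Trp53i11 and Aplnr lie further right in arterial cells, Clu, Ace, Hs3st1 and Col18a1 further right in other cells, and Cxcl12 further left in other cells.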

How the data were processed

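Cardiac endothelial cells of 8 mice were measured by 10X 3' single-cell RNA sequencing. The authors aligned reads to mm10 and counted them with Cell Ranger, and the submitters' processing notes also name R 3.5.2 and Seurat 2.3. The deposited table holds raw UMI counts of 16791 genes, and the authors had removed cells with under 400 genes or over 20% mitochondrial reads (lowest 403 genes and highest 20.0% in the table). No doublet caller was run.

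The rule was applied to every cell with Python 3.11.15 (numpy 2.4.6, pandas 2.3.3, scipy 1.17.1). UMIs were summed per mouse over arterial and over other endothelial cells. Sums were tested with edgeR 4.0.16 (R 4.3.3; quasi-likelihood, TMM scaling, filterByExpr, Benjamini-Hochberg). Total UMIs per healthy mouse were 6764977 to 8793655, and per MI mouse 15865234 to 27244947. Each mouse is 1 sample, so p-values measure the spread between mice, and intervals from counting were not used. Scripts were tested on simulated data. Figures were drawn with matplotlib 3.10.9.

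The members and gene lists were chosen with earlier results of these data known. Genes were named by rule. For MI against healthy these were the 12 largest rises and falls among called genes averaging 50 CPM or more, with no overlap between groups, for the difference of the MI effect the 6 largest in each direction, and for arterial against other cells the 20 highest and 10 lowest. Up to 4 called members of each list with at least 50 CPM were also named, and any arterial gene outside the rule. Of the genes chosen by this rule, 1 is not reported here. Other list members were named after their values were seen. Alternatives were DESeq2 1.42.0, limma-voom (limma 3.58.1), RLE scaling, no filter, other gates, thinning to 1000 UMIs, other treatment of copied barcodes and leaving out each mouse.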

Additional observations from a re-analysis of the deposited data

Results flagged for a closer look

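Among 118 groups of 4 mice checked gene by gene, 12 held a mouse far from the other 3, and chance alone sets about 1 in 20 groups apart in this way. MI 244 stood apart for S100a8 (778 CPM, group median 20.1) and S100a9 (513 CPM, median 8.14), nearly all of it from 1 cell, and also for Trp53i11 (208 CPM, median 152) and Ace (108 CPM, median 146). MI 256 stood apart for Mest (113 CPM, median 206), Gm42726 (35.8 CPM, median 13.2) and Gm17541 (61.6 CPM, median 26.7), and MI 255 for Col18a1 (499 CPM, median 380). Among healthy mice, Healthy 239 was high for Lyz2 (208 CPM, median 18.8), where 163 of its 313 UMIs came from 1 cell. Healthy 228 was high for Gm10263 (349 CPM, median 174) and Gm17541 (166 CPM, median 82.2), and Healthy 227 was low for Hes1 (182 CPM, median 314).

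The MI effect differed between arterial and other endothelial cells, by the edgeR interaction test, for 12 named genes. The difference on the log2 scale was 5.35 for S100a9, 4.65 for S100a8, 1.78 for Trp53i11, 1.63 for Col15a1, 1.63 for Lgals1 and 1.59 for Mest. For S100a9 and S100a8, of which 1 cell held nearly all UMIs in MI 244, it turned to -0.63 and -0.74 with at least 4 arterial genes and to -0.90 and -1.39 without Nebl in the rule. It was -1.86 for Clu, -1.37 for Hs3st1, -1.34 for Ace, -1.27 for Igf2, -1.23 for Col18a1 and -1.19 for Igfbp4.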

How the results depend on the processing

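The counts of changed genes moved with the cells and mice that entered the fits, and the cause of each shift below was not tested. For MI against healthy in arterial cells (962 higher, 1015 lower), the counts were 91 and 133 with the rule applied to cells thinned to 1000 UMIs, 298 and 374 in cells that also met it at 1000 UMIs (an alternative chosen after seeing the data), and 236 and 312 without cells with RNA of other types. They were 1444 higher with at least 2 arterial genes, 641 higher with at least 4, 662 lower without Healthy 227 and Healthy 228, and 640 to 1032 higher and 665 to 1068 lower when each mouse was left out, the lowest without MI 255. Without scaling factors the split was 1200 and 827.

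For the difference of the MI effect (192 higher, 109 lower) the counts were 41 and 26 with the thinned rule, 67 lower in cells that also met it at 1000 UMIs, 70 and 52 without RNA of other types, 126 and 65 without Healthy 227 and Healthy 228, 291 and 197 with no filter and 106 higher with DESeq2. Leaving out each mouse gave 119 to 258 and 62 to 134, with 119 and 62 without Healthy 239, 68 lower without Healthy 240 and 66 lower without MI 255. The counts of arterial-high and arterial-low genes (80 and 52) were 47 and 19 with a pseudocount of 50 CPM, with 92 low under the thinned rule and 17 low with at least 2 genes. The difference in genes per cell was 14.6 with at least 2 arterial genes (exact p = 0.0571), and 14.4 to 20.2 when each mouse was left out, with an exact p of 0.0571 without any 1 of the 4 healthy mice.

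Among genes called in the main fits, the sign turned with the thinned rule for Uqcrq in arterial cells (-0.028). With that rule the sign of the difference of the MI effect turned for S100a8 (-0.30), Prss23 (-1.01), Igfbp3 (-0.042), Klf4 (0.026), Pgf (-0.28) and Vim (-0.24). Vim also turned without the 5% of cells with the most UMIs (-0.10) and without RNA of other types (-0.12). With at least 4 arterial genes S100a9 was at -0.63 and S100a8 at -0.74, and without Nebl in the rule at -0.90 and -1.39. Of single genes, 2331 values for MI against healthy and 2456 for the difference kept their side of the threshold. Those called in the main fit also kept their direction, whereas those not called were counted here whatever their sign. A call was lost in 248 and 94 and gained in 22 and 94. No paired analysis was possible because healthy and MI mice were different animals that share no replicate number.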
